A study of Mus musculus with 12 samples.

Results

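A set of 10 genes of TGF-beta family signalling was followed in C2C12 myotubes, the muscle fibres that a mouse myoblast line forms in culture. The genes encode the ligands Tgfb1, Tgfb2, Tgfb3, Mstn and Gdf11, the activin subunits Inhba and Inhbb, the activin-binding protein Fst, the receptor Acvr2b and the inhibitor Smad7. They were chosen by symbol, by their roles in the pathway, with earlier results of these data known. All 10 were found among the 21187 genes of the arrays. Myotubes differentiated for 3 days received leukemia inhibitory factor (LIF, mouse, 10 ng/ml), a cytokine that signals through JAK kinases and STAT3, or medium conditioned by C26 mouse colon carcinoma cells at 1 part in 3. Each agent had its own untreated myotubes, sampled alongside at 4, 8 and 24 h, and all groups shared the C2C12 line and its differentiation. The question, from the series title, is what LIF does in the muscle wasting that the C26 tumour causes. Each of the 12 arrays held pooled RNA from 3 wells, with 1 array per agent, arm and time, so a difference at 1 time has no replicate check. Both agents acted on 1 cell line in culture, without the other cells of muscle.

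The family works through receptor kinases. A dimeric ligand brings type II and type I receptors together, and the type I receptor of TGF-beta, activin or myostatin phosphorylates Smad2 and Smad3, which enter the nucleus with Smad4 and change transcription. In skeletal muscle myostatin and the activins act through Acvr2b and its relative Acvr2a to limit fibre size, activin excess causes wasting in mice, and follistatin, the product of Fst, binds these ligands and keeps them from the receptor. Smad7, itself induced by the pathway, blocks the type I receptor. TGF-beta ligands inhibit the differentiation of myoblasts and drive the formation of connective tissue.

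The 250 bases before the start site are printed for 4 of the genes, 5′ to 3′ on the gene's strand, from the RefSeq promoter table of mouse build GRCm38.p6. That table served for 7 of the 10 genes, after its entries on 1 chromosome were left out. Fst, Tgfb3 and Smad7 were not searched. Inhba and Tgfb1 are shown because their transcripts were lower with both agents at every time, Inhbb as the other activin subunit gene, which did not share that pattern, and Tgfb2 for its motif matches. The windows are Inhba at chr13:16011601-16011850 on the plus strand, Tgfb1 at chr7:25686752-25687001 on the plus strand, Inhbb at chr1:119422249-119422498 on the minus strand and Tgfb2 at chr1:186705990-186706239 on the minus strand. Capitals mark motif matches and occur in Tgfb2 alone.
Inhba: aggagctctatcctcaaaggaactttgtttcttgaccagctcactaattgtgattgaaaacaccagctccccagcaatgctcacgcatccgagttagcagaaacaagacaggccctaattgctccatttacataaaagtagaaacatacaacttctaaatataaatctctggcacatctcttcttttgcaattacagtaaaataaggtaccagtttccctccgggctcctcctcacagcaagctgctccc
Tgfb1: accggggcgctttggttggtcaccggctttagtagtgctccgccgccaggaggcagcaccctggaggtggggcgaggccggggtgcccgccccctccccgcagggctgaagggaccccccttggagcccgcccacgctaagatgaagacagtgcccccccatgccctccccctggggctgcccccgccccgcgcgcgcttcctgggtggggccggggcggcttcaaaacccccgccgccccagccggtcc
Inhbb: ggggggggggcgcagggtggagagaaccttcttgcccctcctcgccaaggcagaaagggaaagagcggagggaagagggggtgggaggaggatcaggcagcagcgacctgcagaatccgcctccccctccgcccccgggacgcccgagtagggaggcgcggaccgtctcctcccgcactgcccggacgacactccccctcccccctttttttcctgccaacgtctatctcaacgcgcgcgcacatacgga
Tgfb2: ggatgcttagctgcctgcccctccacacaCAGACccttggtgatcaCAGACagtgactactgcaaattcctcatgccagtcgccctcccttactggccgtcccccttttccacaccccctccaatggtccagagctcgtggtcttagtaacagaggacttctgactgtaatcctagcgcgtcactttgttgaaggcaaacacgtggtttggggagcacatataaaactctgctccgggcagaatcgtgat
Both strands were searched for 4 motifs. The STAT motif TTCNNNGAA, with N for any base, lies in 7.02% of 32851 windows of this length, the AP-1 motif TGANTCA in 6.75%, the Smad motif CAGAC in 42.2% and the cyclic AMP response motif TGACGTCA in 1.55%. Tgfb2 held CAGAC at 221 to 217 and at 204 to 200 bases before the start. Inhba, Tgfb1, Inhbb and Gdf11 held 0 matches to any of the 4 motifs. Mstn held 2 CAGAC and 1 TGANTCA, and Acvr2b held 1 CAGAC, on the opposite strand. The share of G and C was 43.2% in the Inhba window and 53.6% in the Tgfb2 window, against 68% in the Inhbb window, 75.2% in the Tgfb1 window and a median of 52.4% over all windows. A match is a string of letters in this window, not a shown binding site.

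Socs3, the STAT3-induced feedback inhibitor, was read first as a check of the treatments. It had log2 levels of 8.7, 8.7 and 8.5 in LIF-treated myotubes at 4, 8 and 24 h, against 8.0, 7.9 and 7.4 in untreated ones. With conditioned medium Socs3 had log2 levels of 8.64, 9.21 and 8.76, against 8.34, 8.37 and 7.92 in untreated myotubes. It was higher in all 6 pairs of treated and untreated arrays, and averaged over both agents it rose by 0.76 on the log2 scale (limma adjusted p of 0.00547). With a single agent Socs3 was not called, at 0.87 with LIF (limma adjusted p of 0.0559) and 0.66 with the medium (0.0557). Serpina3n, an acute phase protease inhibitor gene, rose by 0.80 for both agents averaged (limma adjusted p of 0.0113), although it was above background in only 5 of the 12 arrays. It too was not called with a single agent (0.0559 with LIF and 0.213 with the medium). All 10 myotube marker genes, such as Myog and Ckm, were above background in all 12 arrays, so the defining genes of the labelled cell type were present.

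Of the 10 genes, 9 were above the background of the array in all 12 arrays, and Mstn was in none. Background was taken as the level that 5% of 1290 olfactory and vomeronasal receptor genes exceed. Array medians were log2 6 at 4 and 8 h and 5.5 at 24 h in the LIF experiment, and lay between 6.71 and 6.74 and then at 6.14 in the conditioned medium experiment. Treatment differences are therefore taken only between the treated and untreated array of the same agent and time, and shifts of untreated myotubes over time are given relative to the median of all genes. Values of the LIF experiment are rounded to 1 decimal, so rounding can move a difference there by up to 0.1. In whole cultures fewer cells of a type and less RNA per cell cannot be told apart.

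**Figure D1:**
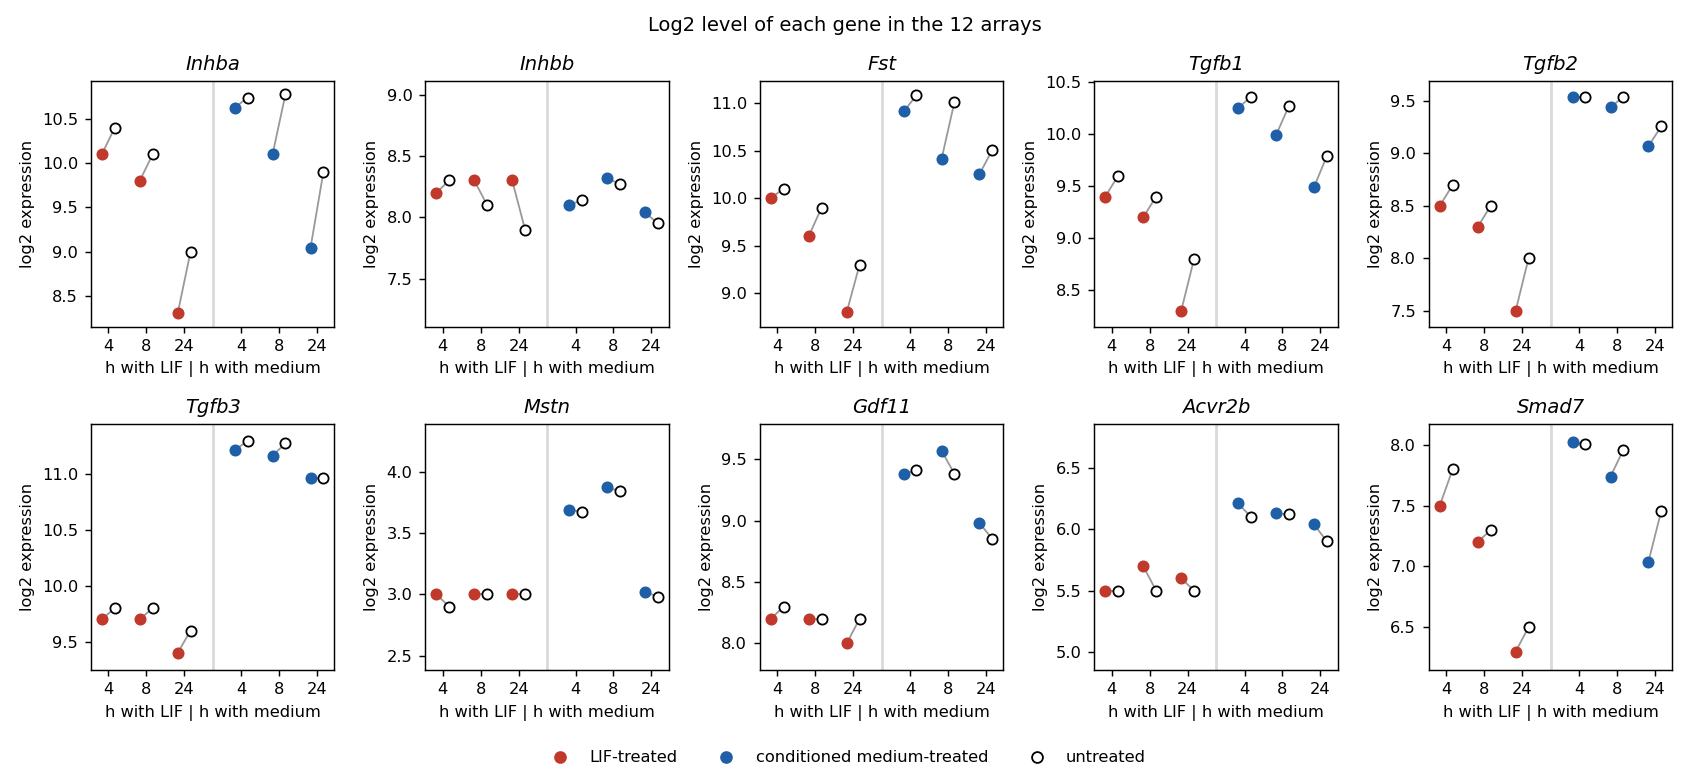
Log2 expression of the 10 genes in all 12 arrays, by hours with LIF (left in each panel) and with conditioned medium (right). Filled points are treated arrays and open points the untreated array of the same agent and time, joined by a line. Inhba, Fst and Tgfb1 show the filled point under the open one in all 6 pairs, and each panel has its own vertical axis.

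Inhba, which encodes the subunit of activin A, was lower in treated myotubes in all 6 pairs, and it had the lowest single difference of the 10 genes (-0.86, at 24 h with the medium). With LIF its log2 level was 10.1, 9.8 and 8.3 at 4, 8 and 24 h, against 10.4, 10.1 and 9.0 in untreated myotubes. With conditioned medium its log2 level was 10.63, 10.10 and 9.04, against 10.74, 10.78 and 9.90 in untreated myotubes. The difference was smallest at 4 h with the medium (-0.11) and reached -0.68 at 8 h and -0.86 at 24 h, while with LIF it was -0.3, -0.3 and -0.7. At 24 h untreated levels were 1.62-fold those of LIF-treated and 1.82-fold those of medium-treated myotubes. Among all genes, 0.288% were as low or lower than Inhba for LIF at 24 h, 0.227% for medium at 8 h and 0.312% for medium at 24 h.

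Inhbb, the subunit gene of activin B, did not share this pattern. Its log2 level with LIF was 8.2, 8.3 and 8.3 at 4, 8 and 24 h, against 8.3, 8.1 and 7.9 in untreated myotubes. With conditioned medium it was 8.10, 8.32 and 8.04, against 8.14, 8.27 and 7.95. It was higher in 4 of the 6 pairs, by up to 0.4 for LIF at 24 h, and lower in both 4 h pairs. The Inhba difference minus the Inhbb difference was -0.20, -0.50 and -1.10 on the log2 scale at 4, 8 and 24 h with LIF and -0.07, -0.73 and -0.95 with the medium, so the gap between the activin subunit genes was widest at 24 h with both agents.

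Fst, whose product neutralises activins, was also lower in all 6 pairs. With LIF its log2 level was 10.0, 9.6 and 8.8 at 4, 8 and 24 h, against 10.1, 9.9 and 9.3 in untreated myotubes. With conditioned medium it was 10.91, 10.41 and 10.25, against 11.08, 11.01 and 10.51. The lowest difference came at 24 h with LIF (-0.5) and at 8 h with the medium (-0.60), where the 24 h difference was -0.26. The Inhba difference minus the Fst difference lay between -0.20 and 0.06 in 5 pairs and was -0.60 for medium at 24 h. The ligand subunit gene and the antagonist gene were thus farthest apart in that pair, with no test of it.

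Of the TGF-beta ligand genes, all 3 were lower at every time with LIF and 1, Tgfb1, at every time with conditioned medium. For Tgfb3 the LIF differences at 4 and 8 h were -0.1, no larger than rounding can produce. Tgfb1, the most widely made isoform, had log2 levels of 9.4, 9.2 and 8.3 with LIF at 4, 8 and 24 h, against 9.6, 9.4 and 8.8 in untreated myotubes. With conditioned medium Tgfb1 had log2 levels of 10.25, 9.99 and 9.49, against 10.36, 10.27 and 9.79. It was lower in all 6 pairs, by 0.11 to 0.5 on the log2 scale.

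Tgfb2, an isoform with roles in heart and skeletal development, had log2 levels of 8.5, 8.3 and 7.5 with LIF at 4, 8 and 24 h, against 8.7, 8.5 and 8.0 in untreated myotubes. The LIF differences of -0.2, -0.2 and -0.5 equal those of Tgfb1. With conditioned medium Tgfb2 stood at 9.54, 9.44 and 9.07, against 9.54, 9.54 and 9.26, level with its untreated array at 4 h and lower by 0.19 at 24 h. Tgfb3, the isoform needed for palate fusion in mice, stood at 9.7, 9.7 and 9.4 with LIF, against 9.8, 9.8 and 9.6. With the medium Tgfb3 stood at 11.21, 11.16 and 10.96, against 11.29, 11.27 and 10.96. Its differences, between -0.2 and 0, were the smallest of the 3 isoforms at 24 h with either agent.

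Mstn encodes myostatin, the muscle-made inhibitor of muscle growth, and its probes gave no signal above background. Its log2 level was 3.0 in all 3 LIF-treated arrays, against 2.9, 3.0 and 3.0 in untreated ones, and 3.69, 3.87 and 3.02 with conditioned medium, against 3.67, 3.84 and 2.98. A change of Mstn could not be seen at these levels, whatever its differences of 0 to 0.1. Gdf11, the closest relative of myostatin, was above background, with log2 levels of 8.2, 8.2 and 8.0 with LIF at 4, 8 and 24 h, against 8.3, 8.2 and 8.2 in untreated myotubes. With conditioned medium Gdf11 stood at 9.38, 9.57 and 8.98, against 9.41, 9.38 and 8.85. It was at or below its untreated array at each time with LIF, and above it at 8 and 24 h with the medium.

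Acvr2b, the activin and myostatin receptor, had log2 levels of 5.5, 5.7 and 5.6 with LIF, against 5.5 in each untreated array. With conditioned medium it stood at 6.21, 6.13 and 6.04, against 6.10, 6.12 and 5.90. Its differences lay between 0 and 0.2 and were below 0 in no pair. Smad7, the inhibitory Smad, had log2 levels of 7.5, 7.2 and 6.3 with LIF, against 7.8, 7.3 and 6.5. With the medium Smad7 stood at 8.02, 7.74 and 7.04, against 8.01, 7.96 and 7.46. It was lower in 5 of the 6 pairs, with the lowest difference for medium at 24 h (-0.42) and a value of 0.01 at 4 h with the medium.

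**Figure D2:**
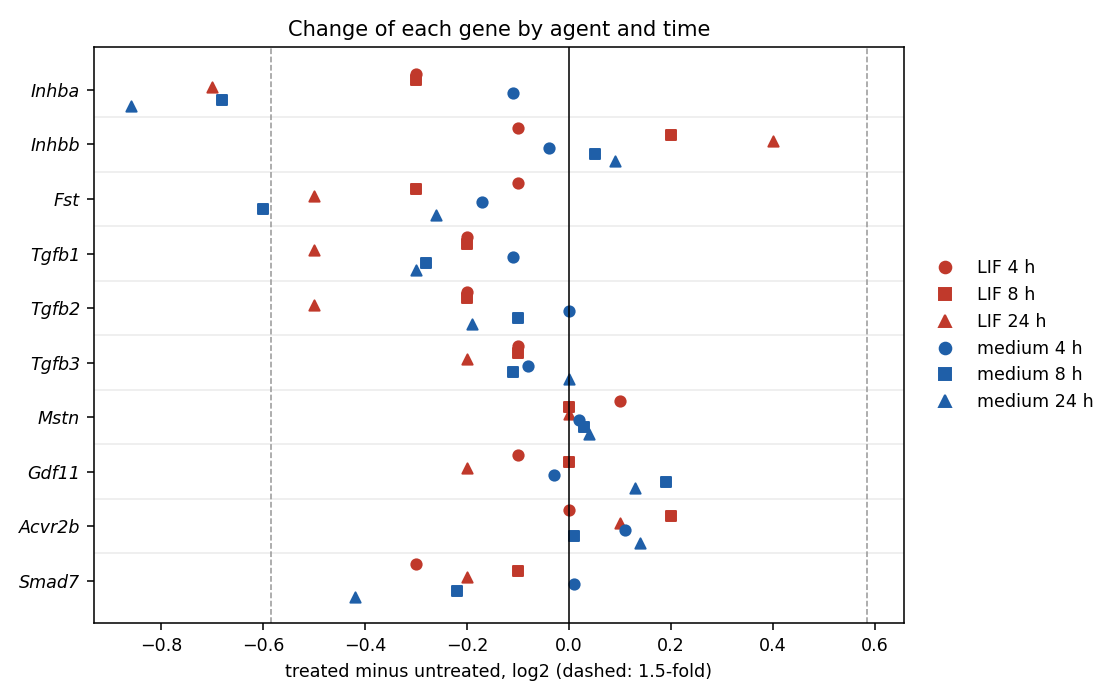
Treated minus untreated log2 difference of each gene (rows) at 4 h (circles), 8 h (squares) and 24 h (triangles), in red for LIF and blue for conditioned medium, with dashed lines at 1.5-fold. Inhba for LIF at 24 h (-0.7), Inhba for medium at 8 and 24 h (-0.68 and -0.86) and Fst for medium at 8 h (-0.60) lie beyond the dashed line, all on the lower side.

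Counts over the 10 genes follow, with the share of all 21187 genes that met the same rule beside each. Past 1.5-fold with LIF there were 0 of 10 genes at 4 h (0.538% of all genes), 0 at 8 h (0.491%) and 1, Inhba, at 24 h (1.24%). With conditioned medium there were 0 at 4 h (0.434%), 2 at 8 h, Inhba and Fst (1.14%), and 1 at 24 h, Inhba (2.5%). Lower at all 3 times of LIF were 6 genes, namely Tgfb1, Tgfb2, Tgfb3, Inhba, Fst and Smad7, where 6.15% of all genes were. The LIF differences of Tgfb3 at 4 and 8 h, Fst at 4 h and Smad7 at 8 h were -0.1, no larger than rounding can produce. Lower at all 3 times of the medium were 3 genes, Tgfb1, Inhba and Fst (12% of all genes), and these were lower in all 6 pairs (1.4%). Higher at all 3 times were 0 genes with LIF (4.67%) and 2 with the medium, Acvr2b and Mstn (11.3%), Mstn at background level.

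The fits across all genes treated the 3 times as repeats, so their p measures how alike a response was over the times, not over replicate cultures. For the mean of both agents 1 of the 10 genes passed limma at an adjusted p of 0.05 (0.505% of all genes): Tgfb1 fell by 0.27 ± 0.05 (SE) on the log2 scale, a 1.20-fold difference, with an adjusted p of 0.0451. That call was lost without any 1 of the times, with limma adjusted p of 0.266 without 4 h, 0.978 without 8 h and 0.612 without 24 h. The fitted effect was then -0.32, -0.28 and -0.20, from 4 pairs in place of 6. Inhba stood at -0.49 ± 0.09 (adjusted p of 0.0504) and Fst at -0.32 ± 0.06 (adjusted p of 0.0593), and both missed the threshold. The mean effect was -0.20 ± 0.05 for Tgfb2 (adjusted p of 0.116), -0.21 ± 0.06 for Smad7 (0.194) and -0.10 ± 0.03 for Tgfb3 (0.196). It was 0.10 ± 0.06 for Inhbb (0.71), 0.09 ± 0.05 for Acvr2b (0.68), 0.03 ± 0.05 for Mstn and 0.00 ± 0.04 for Gdf11.

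For LIF alone limma called 0 of the 10 genes (0% of all genes) and 6 had an unadjusted p under 0.05, all lower (3.37% of all genes), with 0 higher (3.45%). The LIF effect was -0.43 ± 0.12 for Inhba (adjusted p of 0.445), -0.30 ± 0.09 for Fst (0.448), -0.30 ± 0.06 for Tgfb1 (0.24) and -0.30 ± 0.07 for Tgfb2 (0.25). For conditioned medium limma called 0 of the 10 (0.217%) and 4 had an unadjusted p under 0.05, Inhba, Fst, Tgfb1 and Smad7, all lower (3.77%), with 0 higher (3.71%). The medium effect was -0.55 ± 0.12 for Inhba (adjusted p of 0.158), -0.34 ± 0.09 for Fst (0.218), -0.23 ± 0.06 for Tgfb1 (0.292) and -0.21 ± 0.08 for Smad7 (0.543). For the mean of both agents 6 of the 10 had an unadjusted p under 0.05 and were lower (4.68%), and 0 were higher (4.69%). The 6 were the genes lower at all 3 times of LIF.

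**Figure D3:**
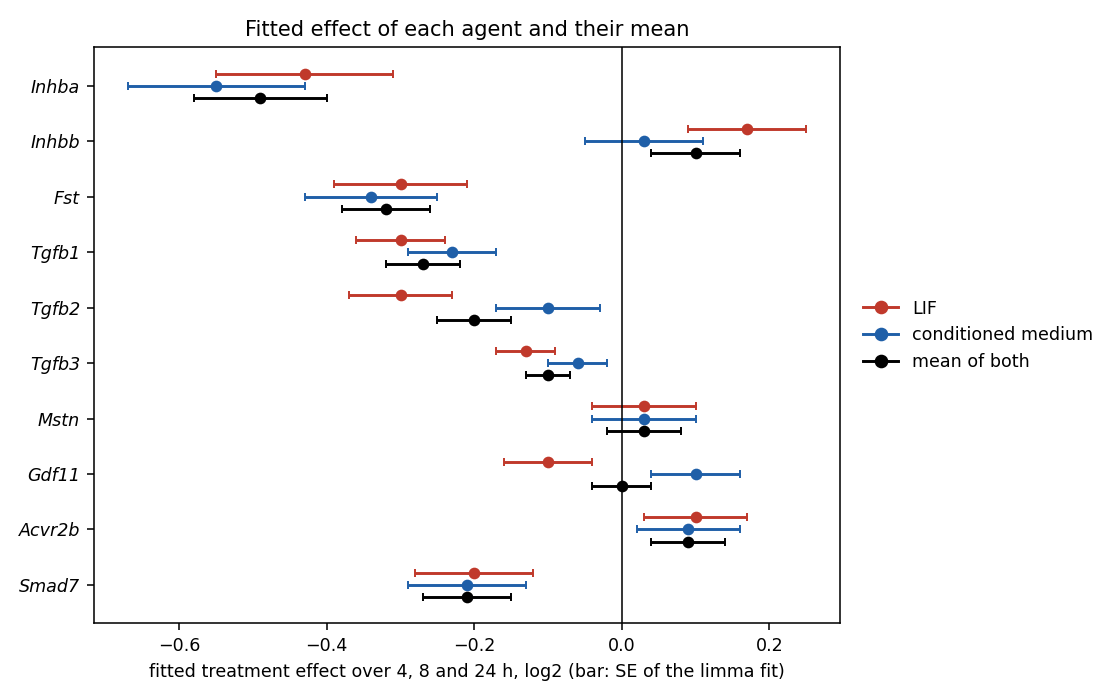
Fitted effect over 4, 8 and 24 h on the log2 scale for LIF (red), conditioned medium (blue) and their mean (black), with the SE of the limma fit as bars. Inhba lies farthest below 0, at -0.43 with LIF and -0.55 with the medium, and Inhbb, Mstn, Gdf11 and Acvr2b have mean effects between 0.00 and 0.10.

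The effects of conditioned medium and LIF were also set against each other for each gene. Limma called 0 of the 10 for medium minus LIF (0% of all genes), and 1, Gdf11, had an unadjusted p under 0.05 (4.48% of all genes), with a difference of 0.20 (95% interval 0.01 to 0.38, adjusted p of 0.967). For Inhba the difference was -0.12 (95% interval -0.51 to 0.28) and for Fst -0.04 (-0.32 to 0.23). For Tgfb1 it was 0.07 (-0.14 to 0.28) and for Tgfb2 0.20 (-0.01 to 0.41). The intervals leave room for differences as large as the effects themselves.

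Inhba had a lower difference at 24 h than at 4 h with both agents. Its shared 24 h minus 4 h effect was -0.58 ± 0.11 (limma adjusted p of 0.0531), which missed the threshold, with the agents in place of repeats. For Inhbb the same contrast was 0.32 ± 0.11 (adjusted p of 0.445), for Tgfb1, Tgfb2 and Fst -0.24 each (0.436, 0.5 and 0.629) and for Smad7 -0.16 (0.928). Limma called 0 of the 10 genes for this contrast (0.401% of all genes). In untreated myotubes Inhba was also lower at 24 h than at 4 h, by 0.90 in the LIF experiment and 0.30 in the medium experiment relative to the median shift of all genes, which was -0.50 and -0.54. Smad7 was lower by 0.80 and 0.01 in the same terms, and Tgfb1 and Fst each by 0.30 and 0.03. These untreated values are single arrays. The deposited folds of the LIF experiment carry a different date for 24 h than for 4 and 8 h. What the dates mark is not stated, and any part of it in the LIF shifts over time was not tested.

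Genes were ranked by the likeness of their differences to those of Inhba among 11795 genes above background in all 12 arrays, leaving out predicted genes, genes with no or several symbols, receptors of smell, small RNA genes and histones. The one whose 6 differences came nearest to those of Inhba was Slc20a1, a phosphate transporter gene, with a root mean square distance of 0.060 on the log2 scale. Its differences were -0.30, -0.20 and -0.80 with LIF at 4, 8 and 24 h and -0.08, -0.65 and -0.87 with the medium. Cmklr1, the chemerin receptor gene, followed at 0.134 and Endod1 at 0.143. Fst came at rank 62, Tgfb1 at 85 and Smad7 at 142, while Inhbb came at 11213. Nearest to Fst were Frem2, a basement membrane protein gene (0.095), Rflnb, a filamin-binding protein gene (0.097), and Foxs1, a forkhead factor gene (0.112), with Tgfb1 at rank 16.

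The rest of the pathway was taken as 6 lists by role, with 109 of 110 genes measured; Gdf1 was not. Limma called 0 of these 109 genes for LIF, 0 for the medium and 0 for their mean, and 10, 18 and 21 of them were lower at an unadjusted p under 0.05, with 11, 9 and 13 higher. Over all genes the shares under that rule were 3.37%, 3.77% and 4.68% lower and 3.45%, 3.71% and 4.69% higher. The median effect over the 109 genes was 0.00 with LIF and -0.01 with the medium, against 0.00 for all genes, while the 10 genes had medians of -0.17 and -0.08. The 10 genes and the lists were chosen with earlier results of these data known, so this contrast is a description only.

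Among 9 other ligand genes, of which only 2 were above background in all arrays, 0 had an unadjusted p under 0.05 with either agent. The largest effect there was 0.17 ± 0.09 for Lefty1 with the medium (adjusted p of 0.766), in the background range in all 12 arrays. Of 23 genes for latency, activation and ligand antagonists, 3 were lower and 1 higher with LIF at an unadjusted p under 0.05 (3.37% and 3.45% of all genes), and 4 lower and 1 higher with the medium (3.77% and 3.71%). Ltbp2, of the latent TGF-beta binding protein family, had log2 levels of 8.9, 8.7 and 7.1 with LIF at 4, 8 and 24 h, against 9.1, 9.0 and 7.9 in untreated myotubes, a fitted effect of -0.43 ± 0.10 (adjusted p of 0.242), and stood at -0.13 ± 0.10 with the medium. Thbs1, whose product activates latent TGF-beta, had log2 levels of 12.44, 12.30 and 12.32 with the medium, against 12.53, 12.53 and 12.65, a fitted effect of -0.22 ± 0.04 (adjusted p of 0.1) and of -0.16 ± 0.03 for the mean of both agents (adjusted p of 0.0511). Ltbp1, which tethers latent TGF-beta to the matrix, stood at 0.20 ± 0.05 with LIF and -0.01 ± 0.05 with the medium. Decorin, encoded by Dcn, binds TGF-beta. Its log2 level was 8.2 with LIF at 24 h, against 7.2 in untreated myotubes, and equal to untreated at 4 and 8 h. With the medium Dcn stood at 9.64, 9.94 and 9.95, against 9.48, 9.54 and 8.97, and its fitted effects were 0.33 ± 0.19 (adjusted p of 0.829) with LIF and 0.51 ± 0.19 (0.522) with the medium. Fstl3, a relative of follistatin, stood at -0.03 ± 0.08 with LIF and -0.24 ± 0.08 with the medium (adjusted p of 0.461).

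Of 9 receptor genes, 0 were lower and 1 was higher with LIF at an unadjusted p under 0.05 (3.37% and 3.45% of all genes), and 0 were lower and 2 higher with the medium (3.77% and 3.71%). Tgfbr2, the TGF-beta type II receptor, had log2 levels of 10.0, 10.1 and 9.8 with LIF at 4, 8 and 24 h, against 9.9, 9.9 and 9.6 in untreated myotubes. With the medium it stood at 10.39, 10.62 and 10.37, against 10.35, 10.42 and 10.14, higher in all 6 pairs, and its mean effect was 0.16 ± 0.03 (adjusted p of 0.0726). Of 19 genes for Smads and their regulators, 3 were lower and 1 higher with LIF at an unadjusted p under 0.05, and 3 lower and 0 higher with the medium, beside the same shares. Skil, a Smad corepressor that the pathway induces, had log2 levels of 9.3, 9.1 and 8.3 with LIF, against 9.5, 9.2 and 8.6, and of 9.11, 8.96 and 8.38 with the medium, against 9.20, 9.23 and 8.63. It was lower in all 6 pairs, with a mean effect of -0.20 ± 0.04 (adjusted p of 0.0626). Pmepa1 and Ldlrad4, feedback inhibitors that bind Smads, had mean effects of -0.12 ± 0.03 (0.206) and -0.16 ± 0.04 (0.11).

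**Figure D4:**
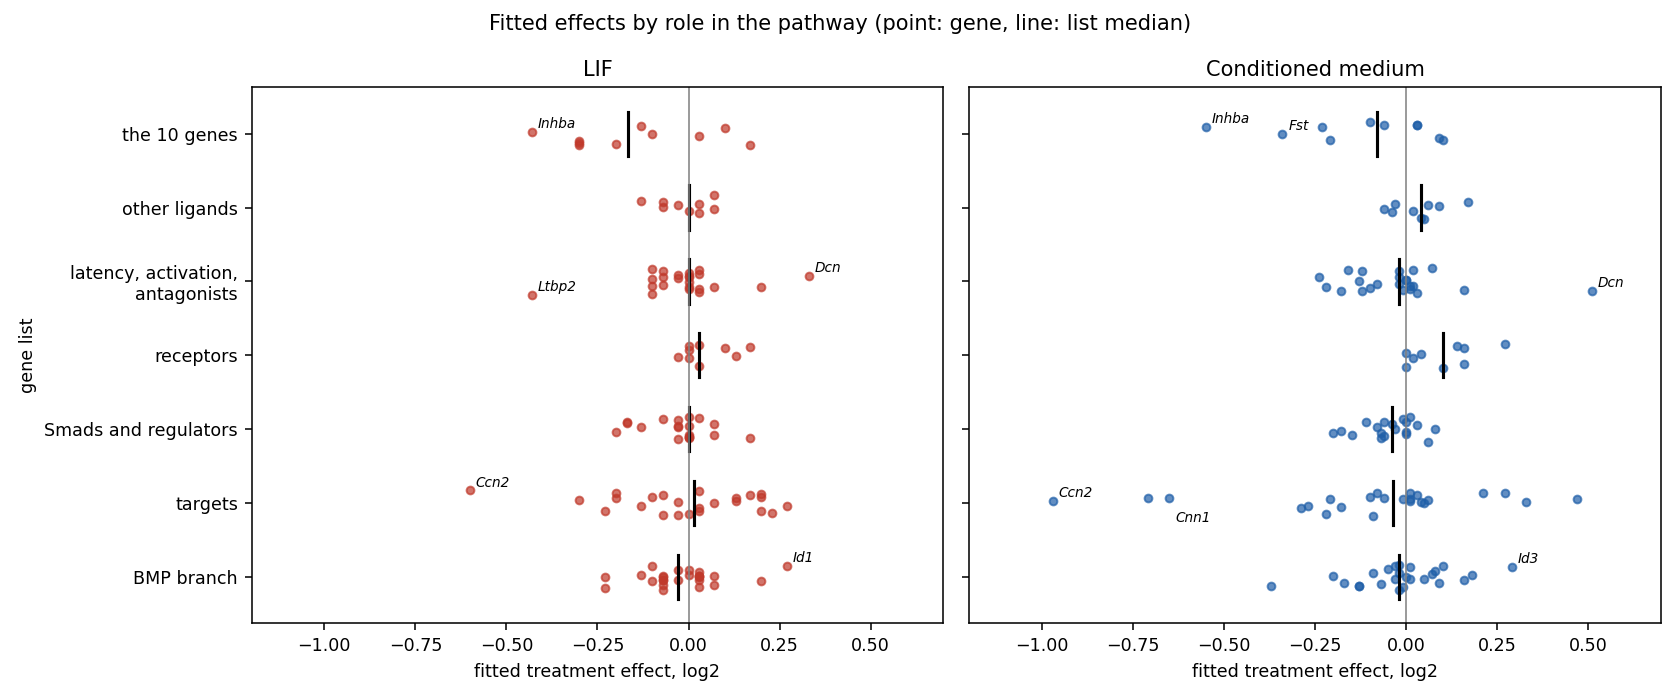
Fitted effect of each gene on the log2 scale (points) for LIF (left) and conditioned medium (right), by role in the pathway, with the list median as a black bar. Ccn2 (-0.60 with LIF and -0.97 with the medium) lies farthest below 0 among the targets, whose medians are 0.02 and -0.03.

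Among 24 genes known as targets of TGF-beta or activin, both directions were seen. With LIF 3 were lower and 6 higher at an unadjusted p under 0.05 (3.37% and 3.45% of all genes), and with the medium 8 were lower and 4 higher (3.77% and 3.71%). Ccn2, a matricellular protein gene, had log2 levels of 10.8, 10.3 and 8.5 with LIF at 4, 8 and 24 h, against 11.4, 10.5 and 9.5 in untreated myotubes. With the medium Ccn2 stood at 11.54, 10.29 and 9.16, against 11.72, 11.61 and 10.57, and the mean effect was -0.78 ± 0.15 (adjusted p of 0.0593). Cnn1, a calponin gene, stood at -0.20 ± 0.15 with LIF and -0.65 ± 0.15 with the medium (adjusted p of 0.159).

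Some targets lay above 0. Snai1, a repressor of epithelial genes, was higher in 5 pairs, with levels of 9.34, 9.56 and 8.87 with the medium, against 9.12, 9.25 and 8.59, and a mean effect of 0.24 ± 0.05 (adjusted p of 0.0614). Klf10, a factor first described as induced early by TGF-beta, stood at 0.23 ± 0.05 with LIF (adjusted p of 0.208) and 0.06 ± 0.05 with the medium. Lox, which cross-links collagen, stood at 0.20 ± 0.05 with LIF and -0.09 ± 0.05 with the medium. Hmga2, a chromatin protein gene, stood at -0.20 ± 0.06 and -0.10 ± 0.06, below 0 with both. In the related BMP branch, 25 genes had medians of -0.03 and -0.02. Id1 and Id3, targets of BMP Smads, had mean effects of 0.22 ± 0.04 (adjusted p of 0.0566) and 0.24 ± 0.05 (0.0972). Grem1, a BMP antagonist gene, had a mean effect of -0.22 ± 0.05 (adjusted p of 0.0943).

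Markers of other cell types were read beside these values. Of 9 measured markers of fibroblasts and unfused mononucleated cells, 7 were above background in all arrays and Dpp4 was in the background range in all, and their summed log2 level lay between 62.3 and 76.71 in treated and between 62.1 and 75.82 in untreated arrays. The median difference of the 9 was 0.10, 0.10 and -0.10 with LIF at 4, 8 and 24 h and 0.05, 0.05 and -0.09 with the medium. Pdgfra, the PDGF receptor gene of mesenchymal cells, rose by 0.39 for the mean of both agents (limma adjusted p of 0.022), and the other 8 were not called. Ly6a stood at 0.30 with LIF and 0.49 with the medium, Pax7 at 0.10 and 0.23, Myf5 at 0.23 and 0.00, Cd34 at -0.23 and 0.02, Thy1 at -0.07 and -0.11, and Dpp4 at 0.03 and -0.12. Mki67 and Top2a, genes of dividing cells, stood at 0.00 and 0.03 with LIF and at -0.23 and -0.16 with the medium. The part of these cells in the values of the 10 genes was not tested. The summed log2 level of the 10 myotube markers lay between 99.7 and 111.4 in treated and between 99.9 and 111.7 in untreated arrays. Of 8 colon carcinoma markers, Epcam, Krt20 and Vil1 were in the background range in all 12 arrays, while Cdh1 and Krt8 were above it in 12 arrays, Krt18 in 10, Lgals4 in 9 and Cdx2 in 7. Of 8 leukocyte markers, Ptprc, Adgre1, Csf1r, Itgam and Lyz2 were in the background range in all arrays, while Cd68 and Cd3e were above it in 12. Of 5 adipocyte markers, Adipoq, Lep and Fabp4 never left the background range, while Plin1 and Cidec were above it in 12. The summed log2 level of the carcinoma markers lay between 36.5 and 43.79 in treated and between 36.8 and 43.73 in untreated arrays. That of the leukocyte markers lay between 31.8 and 39.44 in treated and between 32.6 and 39.54 in untreated arrays, and that of the adipocyte markers between 19.1 and 23.65 in treated and between 19.4 and 23.82 in untreated arrays. These ranges span both experiments and all times, so they also hold the shifts in array scale.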

How the data were processed

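RNA of C2C12 myotubes was measured on 12 Affymetrix mouse gene 1.0 ST arrays, grouped by title, 1 per agent, arm and time. The authors deposited log2 expression values for 21187 Entrez genes, processed with RMA per the submitters' processing notes. The RMA version, probe sets and build were not given in the sources used here. Values carry 1 decimal in the LIF experiment and 2 in the other. The authors also deposited scores, namely signed folds of treated against untreated cultures (per the file headers), which served as an alternative and for symbols, and 12 per-sample columns in them were not used. Symbols came from a RefSeq table of GRCm38.p6 (20819 identifiers matched).

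Values were used with no filter. A limma fit (version 3.58.1, with R 4.3.3, lmFit and trended eBayes) covered all 12 arrays, with a block for each pair of arrays of 1 agent and time and an effect per agent (4 residual degrees of freedom), and in a further fit with a time effect (2 residual degrees of freedom), p adjusted by Benjamini-Hochberg over all genes. The number of arrays limits the precision. On simulated data of 21187 genes, 67% of 100 changed genes were recovered at a log2 change of 0.5 and 96% of 100 at 1 for LIF, and 69% and 96% for conditioned medium, beside 11 and 15 unchanged genes called. The simulation gave each changed gene an equal shift at all 3 times, with independent noise and values of 2 decimals. The LIF values carry 1 decimal and responses varied over the times, so these shares do not give the recovery in the real fits. A gene not called there is not shown to be unchanged. The members and lists were chosen with earlier results of these data known. Named were all members, the 4 genes of each list with the smallest p per agent, the 3 genes nearest in pattern to Inhba and to the member with the next largest mean change (Fst), and Socs3 and Serpina3n; some of these are not reported here. Alternatives changed the filter, scaling, rounding, variance model, thresholds or source of values, or left out a time.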

Additional observations from a re-analysis of the deposited data

Results flagged for a closer look

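The values of Lox lay on opposite sides of 0 with the agents. It was higher than untreated at all 3 times with LIF (0.10, 0.20 and 0.30 on the log2 scale at 4, 8 and 24 h) and lower at all 3 times with conditioned medium (-0.05, -0.01 and -0.22). Medium minus LIF was -0.29 (limma adjusted p of 0.884), and limma called 0 genes for that difference over all genes. The LIF difference at 4 h was no larger than rounding can produce. The medium differences at 4 and 8 h were close to 0, so the opposite sides rest mainly on 24 h.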

How the results depend on the processing

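The fitted effect of LIF or of the medium reversed for 0 of the 10 genes in the alternatives run, and Gdf11 alone changed sign for the mean of both agents, to 0.02 with values rounded to 1 decimal, 0.03 without 4 h and 0.01 without 24 h, from an effect close to 0. The count of the 10 genes called for that mean, 1 as reported, was 3 at an adjusted p of 0.10, 3 after centring on the median, 3 without the dimmest 25% of genes and 2 after quantile normalization. It was 0 from the authors' deposited fold changes, 0 with no variance trend, 0 with rounded values, 0 without 4 h, 0 without 8 h and 0 without 24 h. The share of all genes called in each alternative is not given here. A moved count is therefore not a result about the 10 genes. Tgfb1 was called in 5 of 11 alternatives (limma adjusted p between 0.0243 and 0.978), Inhba in 3 (0.0378 to 0.978) and Fst in 2 (0.0474 to 0.978). For 24 h minus 4 h the count was 1 at an adjusted p of 0.10, 1 after centring and 1 without the dimmest 25%, against 0 as reported. Past a log2 difference of 0.32 there were 5 gene and time pairs with LIF, against 1 past 1.5-fold, and 4 with the medium, against 3. Those with LIF were all at 24 h, with Inhba, Fst, Tgfb1 and Tgfb2 lower and Inhbb higher (0.4). Past a fold of 2 there were 0 with LIF and 0 with the medium. The shares of all genes past these other folds are not given, so a change in these counts is not a result about the 10 genes. After quantile normalization 1 gene was higher at all times with LIF, 6 were lower and 1 higher with the medium, and 6 were lower in all pairs. The shares of all genes under quantile normalization are likewise not given, so these counts have no baseline. Higher at all times with the medium was 1 gene among those above background, and 0 with rounded values, against 2 as reported. For these counts too no share of all genes is given. The causes of these shifts were not tested. A fit that leaves out a time also holds fewer arrays, and the fewer arrays and the missing time cannot be told apart. No paired analysis by replicate number was possible because each group holds 1 array; the treated and untreated array of an agent and time form the block of the reported fit. With 1 array of pooled RNA per arm and time, the spread between cultures is unknown.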
